A study of Gallus gallus with 4 samples.

Results

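LAPTM5, LAMP3, TCIRG1, LAPTM4A, NPC1 and GNPTAB are genes of the lysosomal membrane and its supply route, and they were followed through breast muscle of chickens of a slow-growing and a fast-growing breed. The 6 genes were picked by symbol from the 17934 gene IDs of the deposited tables, and each matched exactly 1 ID. The rule itself uses no measured value, but the set was proposed with results of these data known. The study itself lists LAPTM5, LAMP3, TCIRG1, LAPTM4A and GNPTAB among its differentially expressed genes from these libraries. Calls and large ratios in the set were therefore built in, and the shares of all genes given below are a background and not a test of the set. Muscle RNA came from female birds at 7 weeks of age in 4 groups: XHl and XHh, Xinghua birds (Xing Hua or Xinhua in the labels) of low and high body weight, and WRRl and WRRh, Recessive White Rock birds of low and high body weight. Body weight averaged 207.6 ± 11.1 g in XHl, 305.8 ± 23.3 g in XHh, 695.0 ± 24.4 g in WRRl and 1064.0 ± 11.1 g in WRRh, where the sources leave the kind of error unnamed. All birds had free access to the same feed, and the RNA of 3 birds was mixed in equal amounts into the 1 library of each group, so that birds within a pool cannot be told apart. Each breed came from its own supplier, so breed and supplier cannot be told apart either. Expression is given in FPKM, a count of fragments scaled by transcript length and by the library's mapped reads, which allows levels to be compared between genes.

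Lysosomes are acidified by the V-ATPase, a proton pump whose membrane-bound a subunit exists in several forms, and their limiting membrane is lined by glycoproteins of the LAMP family. Soluble hydrolases are sent there by a mannose 6-phosphate tag that is started in the Golgi, and cholesterol released inside the lysosome leaves through the membrane protein NPC1 after hand-over by the soluble NPC2. In skeletal muscle the lysosome is the end point of autophagy, while in macrophages, dendritic cells and osteoclasts it also serves antigen handling and bone resorption. From knowledge of mammals, 3 of the genes are leukocyte forms: LAPTM5, a lysosomal protein of blood cells that lowers antigen receptor levels in T and B cells, LAMP3, the DC-LAMP of mature dendritic cells, and TCIRG1, the a3 subunit that osteoclasts and immune cells use. The other 3 are widely expressed: LAPTM4A, a late endosomal and lysosomal relative of LAPTM5, NPC1 itself, and GNPTAB, which encodes the α and β subunits of the phosphotransferase that starts the mannose 6-phosphate tag. GNPTAB is a Golgi enzyme and not a lysosomal membrane protein, so the group name fits it only through its function.

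The tables place LAPTM5 (ENSGALG00000000562) at chr23:241267-255608, LAMP3 (ENSGALG00000008759) at chr9:17469913-17479071 and TCIRG1 (ENSGALG00000003516) at chr5:93368-96829. LAPTM4A (ENSGALG00000016479) is at chr3:104329178-104343370, NPC1 (ENSGALG00000015030) at chr2:106186276-106221887 and GNPTAB (ENSGALG00000012763) at chr1:57567432-57607850. The submitters' notes name galGal4, but the tables name no build for these positions, which can also span several neighbouring genes. Of the 6, LAPTM5 is the gene for which the study designed an amplicon, and its primers are shown in lower case, 5′ to 3′, as the identity of the transcript that was followed.
LAPTM5 forward: accaaacccccaaaatgctg
LAPTM5 reverse: ttcaccaccccaaagaggag

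All 6 genes were above 0 FPKM in the 4 libraries. LAPTM4A was the most abundant of them in each library, and LAMP3 the least abundant. Each library summed to between 541794 and 637679 FPKM over its genes, with 12419 to 12904 genes above 0. Read counts per gene were not used here, so the depth of a single value is unknown. By the study's own count, XHl had the most mapped reads of the 4 libraries. Of the muscle fibre markers 5 of 8 matched, and they summed to 19726 and 23972 FPKM in XHl and XHh, against 20614 and 21660 FPKM in WRRl and WRRh, most of it from the troponins TNNI2 and TNNT3. ACTN2 and MYOZ1, proteins of the Z-disc, were above in both XH libraries, as were 15.0% of all genes tested, or 32.9% after median-of-ratios factors. Neither passed limma (adjusted p = 0.115 and 0.114), and MYOZ1 was picked out after its values were seen. The list's median breed change was 0.08, or 0.36 with 5 of 5 genes positive after median-of-ratios factors. The median breed change of all 10669 genes tested was -0.24 on the log2 scale as deposited and near 0 (-0.0014) after median-of-ratios factors, so changes between the breeds are read against that shift.

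**Figure D1:**
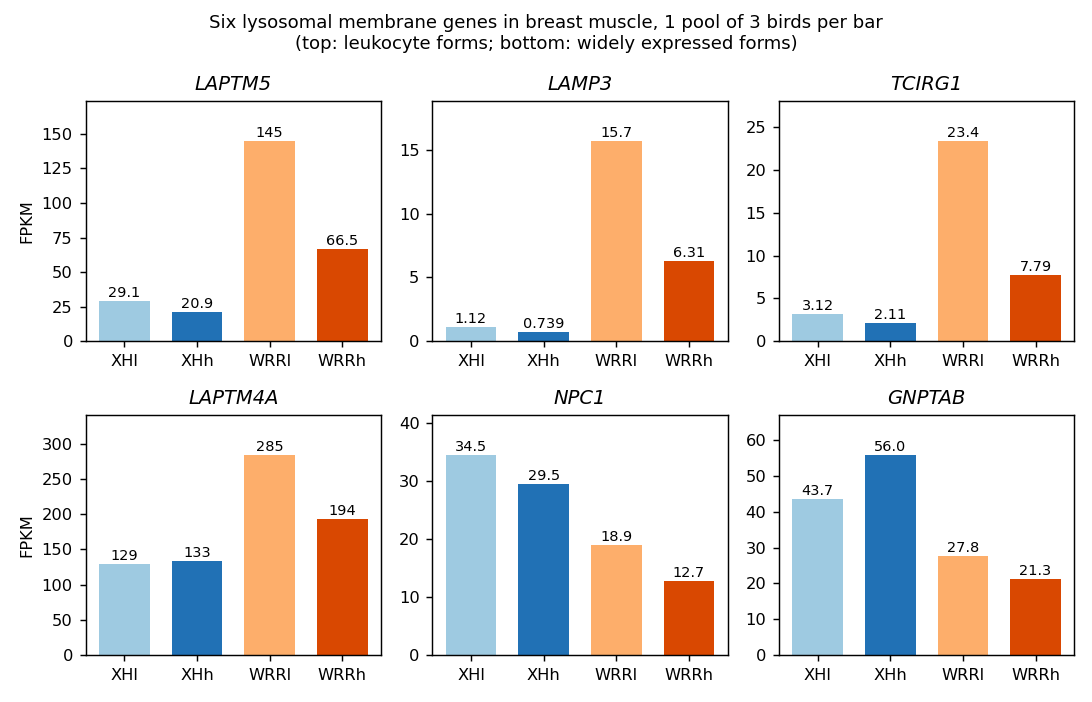
FPKM (vertical axis, from 0, own scale per panel) of the 6 genes in XHl, XHh, WRRl and WRRh, each bar 1 library of 3 pooled birds. The leukocyte forms in the top row are highest in WRRl (145 FPKM for LAPTM5, 15.7 for LAMP3, 23.4 for TCIRG1), while NPC1 and GNPTAB are higher in both XH libraries than in both WRR libraries.

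The comparison of XH with WRR asks which genes differ between a slow-growing and a fast-growing breed. The 3 leukocyte forms were lower in both XH libraries than in both WRR libraries, and so was LAPTM4A, by less, while NPC1 and GNPTAB stood higher in XH. In limma, LAPTM5 and LAMP3 fell in XH and NPC1 rose. The changes of TCIRG1, LAPTM4A and GNPTAB missed the threshold.

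LAPTM5 had 29.1 FPKM in XHl and 20.9 FPKM in XHh, against 145 FPKM in WRRl and 66.5 FPKM in WRRh. No XH library reached a WRR library. Its mean was 25.0 ± 5.80 FPKM in XH and 106 ± 55.5 FPKM in WRR (SD, n = 2 libraries each), and it stood between percentile 76.7 of expressed genes in XHh and percentile 96.0 in WRRl. The change was -1.95 ± 0.20 (SE) on log2(FPKM + 1), XH minus WRR, with a Benjamini-Hochberg adjusted p = 0.0479 in limma. The study's own qPCR of LAPTM5 on the same RNA differed between the breeds: XHh was several times higher than WRRh, and XHl was only slightly lower than WRRl. Between weight classes that qPCR had the direction of the FPKM values, higher in the low class of each breed.

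LAMP3 had 1.12 FPKM in XHl and 0.739 FPKM in XHh, against 15.7 FPKM in WRRl and 6.31 FPKM in WRRh. The libraries of the breeds did not overlap, and LAMP3 had the widest span of the 6, at 21.3 times between WRRl and XHh. It stood at percentile 16.2 of expressed genes in XHh and at percentile 67.4 in WRRl. Its breed change was -2.53 ± 0.29, with an adjusted p = 0.0483 in limma, on a scale that understates the change of so low a gene. LAMP3 averaged 0.929 FPKM in XH and 11.0 FPKM in WRR, so it met the required mean of 1 FPKM only through WRR. Without that filter the limma adjusted p was 0.0692.

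TCIRG1 had 3.12 FPKM in XHl and 2.11 FPKM in XHh, against 23.4 FPKM in WRRl and 7.79 FPKM in WRRh. The XH values were again below both WRR values, and the WRR libraries lay 3.01 times apart. Its change of -2.03 ± 0.31 was larger in size than that of LAPTM5, but the adjusted p was 0.0526 in limma.

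LAPTM4A, the widely expressed relative of LAPTM5, had 129 FPKM in XHl and 133 FPKM in XHh, against 285 FPKM in WRRl and 194 FPKM in WRRh. The XH libraries were nearly equal and lay below both WRR libraries. The change was -0.84 ± 0.18 with an adjusted p = 0.0720 in limma.

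NPC1, the cholesterol exporter, had 34.5 FPKM in XHl and 29.5 FPKM in XHh, against 18.9 FPKM in WRRl and 12.7 FPKM in WRRh. Both XH values lay above both WRR values, with means of 32.0 ± 3.58 FPKM in XH and 15.8 ± 4.37 FPKM in WRR (SD, n = 2 libraries each). NPC1 rose by 0.99 ± 0.15 with an adjusted p = 0.0499 in limma. C18orf8, which has its own ID but the very position the tables give for NPC1, had 33.2 and 35.7 FPKM in XHl and XHh, against 31.8 and 32.2 FPKM in WRRl and WRRh. How fragments were divided between those 2 IDs was not tested.

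GNPTAB had 43.7 FPKM in XHl and 56.0 FPKM in XHh, against 27.8 FPKM in WRRl and 21.3 FPKM in WRRh. The breeds did not overlap here either, and XHh was the highest library. The change of 0.99 ± 0.22 equalled that of NPC1 in size, and its adjusted p was 0.0714 in limma.

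The median change of the 3 leukocyte forms was -2.03, beside -0.24 over all genes tested. That of the 3 widely expressed forms was 0.99, but they did not move together, as LAPTM4A lay at -0.84. In all, 2 of the 6 genes fell in XH, against a background of 3.53% of the 10669 genes tested, and 1 of 6 rose, against 1.22%. Of all genes, 377 were called lower and 130 higher, and after median-of-ratios factors 122 lower and 213 higher. With those factors the same 3 genes were called, and the changes were -1.67 for LAPTM5, -2.33 for LAMP3, -1.80 for TCIRG1, -0.56 for LAPTM4A, 1.26 for NPC1 and 1.27 for GNPTAB. By rank alone, 4 of 6 had both XH libraries below both WRR libraries, as did 51.8% of all genes tested, and 2 of 6 had both XH libraries above, as did 15.0%. These percentages were 31.2 and 32.9 after median-of-ratios factors, with the same genes on each side. The calls lie close to the threshold: of the 507 calls 487 had an adjusted p of at least 0.04, and an exact two-sided permutation test of 2 libraries against 2 cannot go below p = 0.333. With all 4 libraries and only breed in the model, the limma adjusted p was 0.0661 for LAPTM5, 0.0430 for LAMP3 and 0.0561 for NPC1. Leaving out 1 library left 1 in its breed, and weight class was dropped from those fits, so only the changes are given. They lay between -2.51 and -1.39 for LAPTM5, -3.12 and -1.93 for LAMP3, and 0.73 and 1.26 for NPC1. For TCIRG1 they lay between -2.77 and -1.30, for LAPTM4A between -1.11 and -0.56, and for GNPTAB between 0.81 and 1.18.

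Between single libraries, which have no replicate check, each of the 6 genes had the same direction in both weight classes. These ratios share libraries with each other and with the limma fit. In the low weight class, XHl over WRRl, FPKM ratios were 0.201 for LAPTM5, 0.0710 for LAMP3, 0.133 for TCIRG1 and 0.452 for LAPTM4A, and 1.83 for NPC1 and 1.57 for GNPTAB. By a 2-fold limit on log2(FPKM + 1), 4 of 6 were lower, against 12.3% of genes, and 0 of 6 were higher, against 1.83%. In the high weight class, XHh over WRRh, the ratios were 0.315 for LAPTM5, 0.117 for LAMP3, 0.271 for TCIRG1, 0.687 for LAPTM4A, 2.32 for NPC1 and 2.63 for GNPTAB. Here 3 of 6 were at least 2-fold lower, against 7.29% of genes, and 2 of 6, NPC1 and GNPTAB, at least 2-fold higher, against 1.93%. The leukocyte forms and LAPTM4A were thus farther apart between the breeds in the low class, and NPC1 and GNPTAB in the high class. These differences were not tested.

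**Figure D2:**
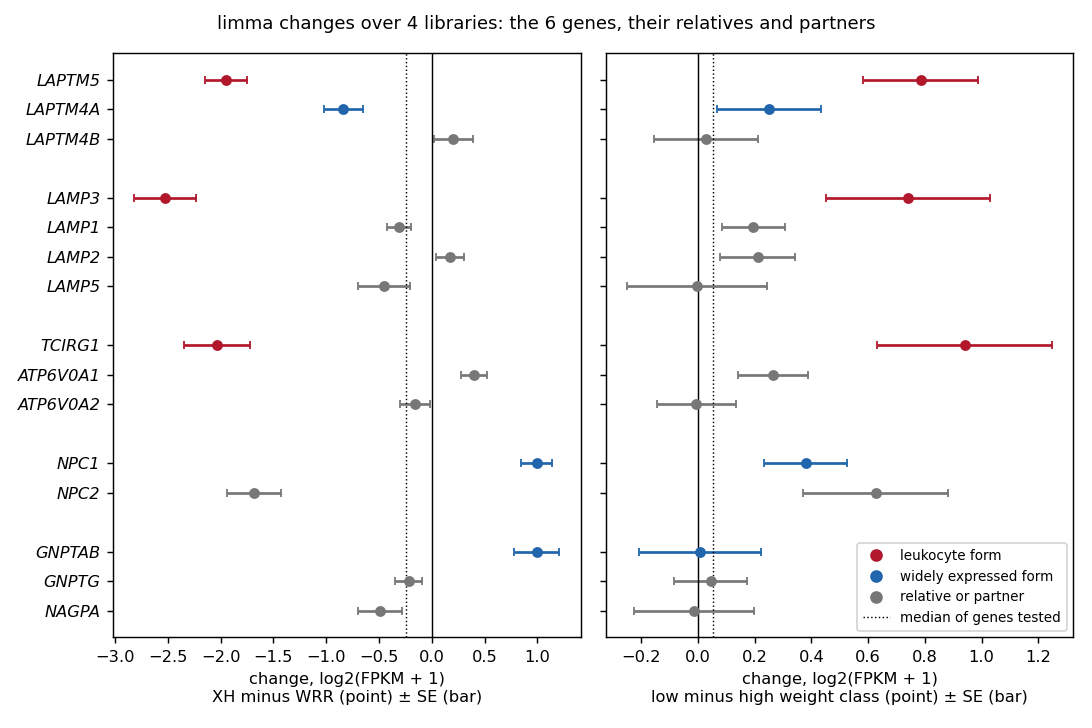
limma changes on log2(FPKM + 1), point ± SE, of the 6 genes (red and blue) and of relatives and partners (grey), for XH minus WRR on the left and for the low minus the high weight class on the right. LAMP3 (-2.53), TCIRG1 (-2.03) and LAPTM5 (-1.95) lie far left of their relatives in the left panel, and NPC1 and NPC2 lie on opposite sides of 0 (0.99 and -1.68).

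Set against widely expressed relatives within the same library, a comparison that needs no scaling between libraries, the 3 leukocyte forms took a smaller share in XH. LAPTM5 over LAPTM4A was 0.227 in XHl and 0.157 in XHh, against 0.510 in WRRl and 0.343 in WRRh. LAPTM5 made 17.4% and 12.9% of the summed FPKM of the LAPTM genes in XHl and XHh, against 33.2% and 24.7% in WRRl and WRRh. LAPTM4B, the third relative, had 10.2 and 8.26 FPKM in XHl and XHh, against 7.20 and 8.50 FPKM in WRRl and WRRh, and its breed change was 0.20 ± 0.18 (limma adjusted p = 0.468).

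In the LAMP family, LAMP3 was a minor gene with a wide span, and its relatives had a narrow one. LAMP1, the main glycoprotein of the lysosomal membrane, had 178 and 165 FPKM in XHl and XHh, against 234 and 193 FPKM in WRRl and WRRh, a change of -0.31 ± 0.11 (limma adjusted p = 0.145). LAMP2, which also serves chaperone-mediated autophagy, had 28.8 and 23.1 FPKM in XHl and XHh, against 23.7 and 21.8 FPKM in WRRl and WRRh, and those ranges overlapped. LAMP3 reached 0.533% and 0.390% of the LAMP sum in XHl and XHh, against 5.71% and 2.82% in WRRl and WRRh. Its ratio to LAMP2 was 0.0388 and 0.0320 in XHl and XHh, against 0.664 and 0.289 in WRRl and WRRh.

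Among the a subunits of the V-ATPase, which anchor the proton channel in a given membrane, TCIRG1 likewise took a smaller share in XH. ATP6V0A1 had 57.6 and 49.1 FPKM in XHl and XHh, against 44.5 and 35.9 FPKM in WRRl and WRRh, so it stood higher in XH (0.40 ± 0.12, limma adjusted p = 0.113) where TCIRG1 stood lower. ATP6V0A2 had 27.4 and 25.0 FPKM in XHl and XHh, against 27.9 and 30.9 FPKM in WRRl and WRRh. The change of ATP6V0A2 was small (-0.16 ± 0.14, limma adjusted p = 0.456) and near the median of -0.24 over all genes tested. The share of TCIRG1 in the a subunit sum was 3.53% and 2.77% in XHl and XHh, against 24.4% and 10.4% in WRRl and WRRh, the largest share being that of WRRl. ATP6V0A4, the form of kidney in mammals, was listed at 0 in all libraries but XHl, where it had 0.141 FPKM.

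**Figure D3:**
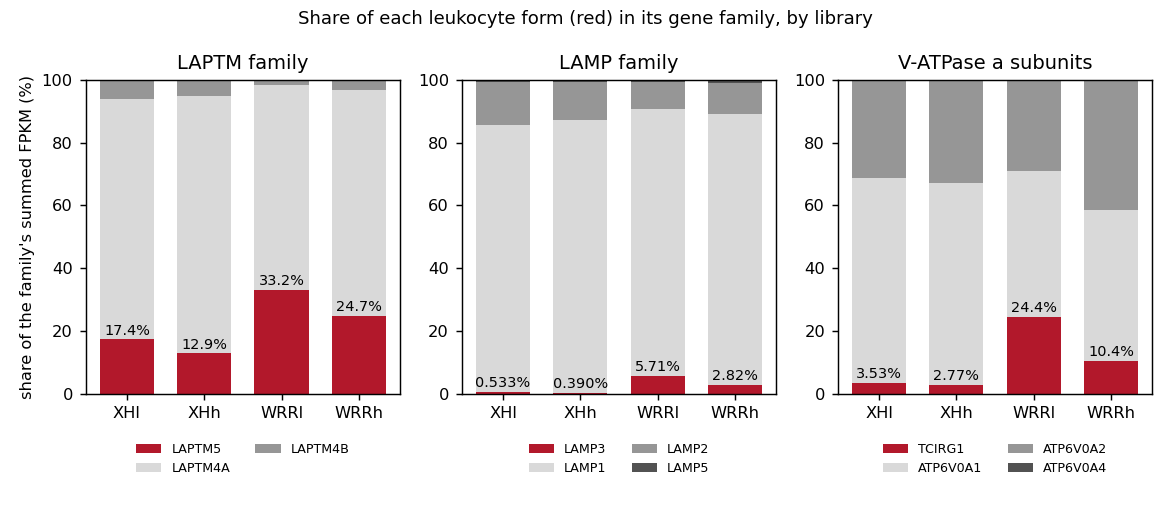
Share (%) of each gene in the summed FPKM of its family in XHl, XHh, WRRl and WRRh, with the leukocyte form in red at the bottom of each bar. The red share is larger in both WRR libraries than in both XH libraries in all 3 families, up to 33.2% for LAPTM5, 5.71% for LAMP3 and 24.4% for TCIRG1 in WRRl.

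Many markers of leukocytes were also lower in XH. The marker lists were chosen with results of these data known. The study itself lists PTPRC, CD3E and LAC among its differentially expressed genes from these libraries. The calls below are thus a description, beside 3.53% of all genes tested that limma called lower in XH. PTPRC (CD45, the pan-leukocyte phosphatase, and the 1 of 7 leukocyte markers with a match) had 9.65 and 7.27 FPKM in XHl and XHh, against 39.8 and 18.1 FPKM in WRRl and WRRh, and it fell in XH by 1.57 ± 0.22 (limma adjusted p = 0.0483). Of macrophage markers 7 of 10 matched, and their sum was 79.7 and 58.9 FPKM in XHl and XHh, against 245 and 114 FPKM in WRRl and WRRh. C1QA, C1QB and C1QC, the subunits of complement C1q made by macrophages, were its 3 called genes, all lower in XH. LY86 (MD-1), the most abundant marker of that list, did not follow them, at 34.3 and 24.6 FPKM in XHl and XHh, against 48.9 and 22.1 FPKM in WRRl and WRRh, with overlapping breeds and a change of -0.18 ± 0.20 (limma adjusted p = 0.566). For T cells 7 of 8 matched, with sums of 38.0 and 23.4 FPKM in XHl and XHh, against 166 and 87.8 FPKM in WRRl and WRRh, and CD3E, CD3D and TRAC fell in XH. Of B cell markers 4 of 5 matched. They summed to 110 and 34.7 FPKM in XHl and XHh, against 2451 and 693 FPKM in WRRl and WRRh. LAC, an immunoglobulin lambda chain, and IGJ made most of that sum in each library. CD79B, IGJ and LAC fell in XH. CD79B had 0.378 and 0.221 FPKM in XHl and XHh, against 9.95 and 5.16 FPKM in WRRl and WRRh. It thus met the required mean of 1 FPKM only through WRR. After median-of-ratios factors limma called 2 macrophage, 3 T cell and 3 B cell markers lower in XH, beside 122 of all 10669 genes tested. PTPRC was then no longer called. No matched marker of these lists was at 0 in all libraries. In bulk RNA, fewer cells of a type and less RNA per cell cannot be told apart, and the part of leukocytes in the change of the 6 genes was not tested.

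Per unit of PTPRC, the 3 leukocyte forms were unlike one another. LAPTM5 over PTPRC was 3.02 in XHl and 2.88 in XHh, against 3.64 in WRRl and 3.67 in WRRh, and the WRR mean was 1.24 times that of XH. TCIRG1 over PTPRC was 0.323 in XHl and 0.290 in XHh, against 0.589 in WRRl and 0.431 in WRRh. LAMP3 over PTPRC was 0.116 in XHl and 0.102 in XHh, against 0.396 in WRRl and 0.349 in WRRh, and the WRR mean was 3.42 times that of XH. In each case the ratios of XH lay below those of WRR. LAMP3 relative to LAPTM5 was also lower in XH, at 0.0384 in XHl and 0.0353 in XHh, against 0.109 in WRRl and 0.0950 in WRRh. The widely expressed forms had higher ratios in XH. PTPRC is itself lower in XH, so a gene that fell less has a higher ratio there. GNPTAB over PTPRC was 4.53 in XHl and 7.70 in XHh, against 0.698 in WRRl and 1.18 in WRRh. LAPTM4A, though lower in both XH libraries, had ratios of 13.3 in XHl and 18.3 in XHh, against 7.15 in WRRl and 10.7 in WRRh.

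**Figure D4:**
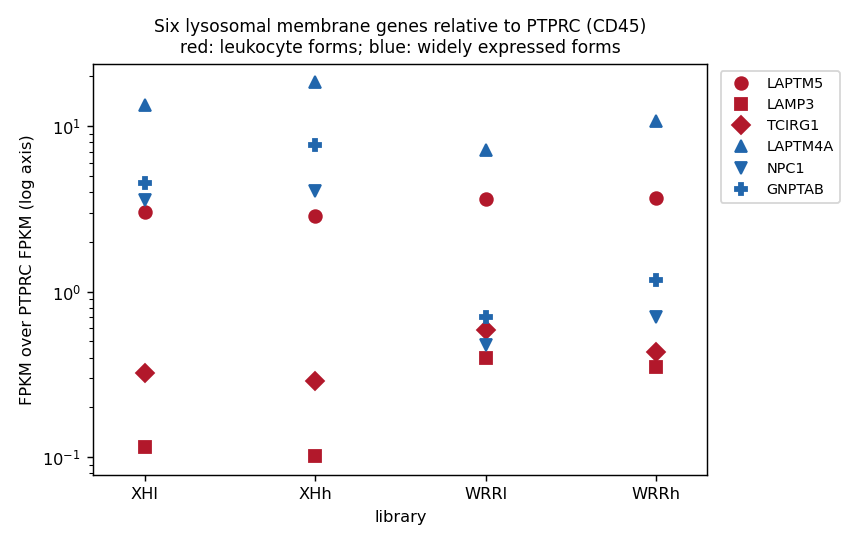
FPKM of the 6 genes over the FPKM of PTPRC in the same library (log axis) for XHl, XHh, WRRl and WRRh, leukocyte forms in red and widely expressed forms in blue. LAPTM5 stays between 2.88 and 3.67, while LAMP3 is at 0.116 and 0.102 in XH and at 0.396 and 0.349 in WRR.

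Dendritic cells, known for LAMP3 in mammals, and osteoclasts, known for TCIRG1, were covered by few markers. Of the dendritic cell markers 3 of 6 matched. XCR1, a chemokine receptor of cross-presenting dendritic cells, was too low to be tested. It had 0.214 FPKM in XHl and was listed at 0 in XHh, against 2.06 and 0.870 FPKM in WRRl and WRRh. ZBTB46 and IRF8, which other cells also express, made most of the sum of 51.3 and 47.1 FPKM in XHl and XHh, against 71.3 and 67.7 FPKM in WRRl and WRRh. Their breed changes were -0.26 ± 0.16 (limma adjusted p = 0.321) and -0.65 ± 0.15 (adjusted p = 0.0740), beside a median of -0.24 over all genes tested. After median-of-ratios factors 1 of these 2 was positive and 1 negative. Of the osteoclast markers 2 of 5 matched, the fusion receptors DCSTAMP and OCSTAMP, with sums of 0.579 and 0.431 FPKM in XHl and XHh, against 7.26 and 1.77 FPKM in WRRl and WRRh. DCSTAMP is also made by dendritic cells and had a breed change of -1.33 ± 0.42 (limma adjusted p = 0.118).

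Genes that work with NPC1 and GNPTAB differed in direction among themselves. NPC2, which passes cholesterol to NPC1, had 27.1 and 23.8 FPKM in XHl and XHh, against 122 and 57.4 FPKM in WRRl and WRRh. LIPA, the acid lipase that frees cholesterol from its esters, had 12.9 and 10.9 FPKM in XHl and XHh, against 125 and 38.8 FPKM in WRRl and WRRh. Both were lower in both XH libraries than in both WRR libraries, as were 51.8% of all genes tested. Their changes of -1.68 ± 0.26 (limma adjusted p = 0.0526) and -2.46 ± 0.42 (adjusted p = 0.0693) missed the threshold. NPC1 over NPC2 was therefore 1.27 in XHl and 1.24 in XHh, against 0.155 in WRRl and 0.221 in WRRh. SREBF2, the transcription factor of sterol synthesis, had 47.7 and 56.3 FPKM in XHl and XHh, against 42.2 and 37.7 FPKM in WRRl and WRRh. SQLE, an enzyme of sterol synthesis picked out after its values were seen, had 1.45 and 0.651 FPKM in XHl and XHh, against 4.25 and 2.81 FPKM in WRRl and WRRh.

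GNPTG, the γ subunit of the same phosphotransferase, had 17.0 and 15.6 FPKM in XHl and XHh, against 19.0 and 19.3 FPKM in WRRl and WRRh, a change of -0.22 ± 0.13 (limma adjusted p = 0.297). GNPTAB over GNPTG was 2.57 in XHl and 3.58 in XHh, against 1.47 in WRRl and 1.11 in WRRh. NAGPA, the enzyme that uncovers the tag, had 2.87 and 3.59 FPKM in XHl and XHh, against 5.38 and 4.48 FPKM in WRRl and WRRh. IGF2R, the large mannose 6-phosphate receptor, went with GNPTAB, at 16.5 and 14.6 FPKM in XHl and XHh, against 12.3 and 9.45 FPKM in WRRl and WRRh (0.49 ± 0.14, limma adjusted p = 0.101). GNPTG, NAGPA and IGF2R were taken up as partners after their values were seen.

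As lists, 3 of the 4 groups of lysosomal genes around the 6 had medians between -0.15 and -0.36, near the -0.24 of all genes, and the cholesterol list was lower. Of 25 other lysosomal membrane proteins tested, limma called 0 in either direction at the adjusted threshold (6 at an unadjusted p under 0.05, all lower in XH, where 28.1% of all genes were lower and 6.23% higher at that p), and their median change was -0.15 as deposited and 0.09 after median-of-ratios factors. Its most abundant genes after LAMP1 were SCARB2 (LIMP-2, the receptor of glucocerebrosidase), at 33.2 and 31.0 FPKM in XHl and XHh, against 52.0 and 44.8 FPKM in WRRl and WRRh, and VTI1B, a fusion protein, at 42.0 and 32.8 FPKM in XHl and XHh, against 39.1 and 39.2 FPKM in WRRl and WRRh. Of 9 V-ATPase subunits tested 1 was called, ATP6V0E1, which had 26.7 and 25.2 FPKM in XHl and XHh, against 57.7 and 48.0 FPKM in WRRl and WRRh, and fell by 1.00 ± 0.13 (limma adjusted p = 0.0483), a call that was lost after median-of-ratios factors. ATP6V1C2, a subunit of the soluble part chosen after its values were seen, resembled TCIRG1, at 0.752 and 0.473 FPKM in XHl and XHh, against 20.7 and 4.16 FPKM in WRRl and WRRh, with an adjusted p of 0.0668 in limma. The abundant ATP6V1G1 (146 and 147 FPKM in XHl and XHh, against 172 and 172 FPKM in WRRl and WRRh) and ATP6V1D (83.6 and 82.0 FPKM in XHl and XHh, against 70.0 and 70.4 FPKM in WRRl and WRRh) had changes of -0.23 and 0.23 that did not pass. Of 15 genes of mannose 6-phosphate tagging and sorting limma called 0 (3 lower and 1 higher at an unadjusted p under 0.05), with a median change of -0.28, or -0.01 after median-of-ratios factors. Its most abundant genes were the clathrin light chain CLTB (97.9 and 98.9 FPKM in XHl and XHh, against 89.8 and 108 FPKM in WRRl and WRRh) and the adaptors AP3M1 (33.3 and 39.6 FPKM in XHl and XHh, against 39.0 and 44.8 FPKM in WRRl and WRRh) and GGA1 (28.7 and 26.9 FPKM in XHl and XHh, against 29.6 and 36.4 FPKM in WRRl and WRRh). Of 6 genes of the cholesterol list it called 0 (3 lower and 0 higher at that p), with a median change of -0.77, or -0.54 after those factors, and NPC2, LIPA and SQLE were its 3 lowest. TFEB, the transcription factor that drives many lysosomal genes in mammals, had 28.1 and 22.5 FPKM in XHl and XHh, against 24.0 and 29.3 FPKM in WRRl and WRRh, and the breeds overlapped. Its relative TFEC, of macrophages and osteoclasts, had 0.338 FPKM in XHl and was listed at 0 in XHh, against 2.24 and 0.904 FPKM in WRRl and WRRh. MCOLN1 and STARD3, on sequence not placed on a chromosome, were listed at 0 in all libraries and were not read.

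**Figure D5:**
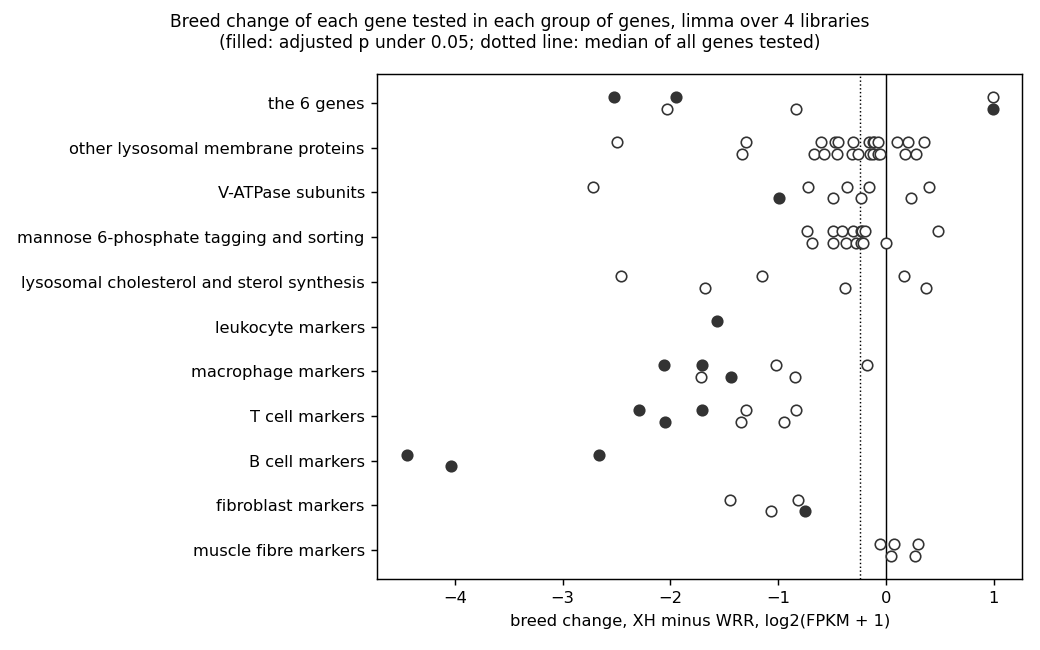
Breed change of each gene tested, XH minus WRR on log2(FPKM + 1) (horizontal axis), in the 6 genes, 4 lists of lysosomal genes and 6 lists of cell type markers (rows), points shifted up and down only to separate them. Of the lysosomal lists 3 have medians near the dotted median of all genes (-0.24) and the cholesterol list lies at -0.77, while macrophage, T cell and B cell markers lie to the left, with medians of -1.44, -1.35 and -4.03.

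The comparison of low with high body weight asks what differs between the tails of each breed. No member passed the threshold in limma: 0 of 6 were called, against 0.0562% of genes in either direction. At an unadjusted p under 0.05, 2 of 6 were higher in the low class, LAPTM5 and TCIRG1, against 4.06% of genes. The changes, low minus high, were 0.79 ± 0.20 for LAPTM5, 0.74 ± 0.29 for LAMP3, 0.94 ± 0.31 for TCIRG1, 0.38 ± 0.15 for NPC1, 0.25 ± 0.18 for LAPTM4A and 0.01 ± 0.22 for GNPTAB, with adjusted p between 0.809 and 0.994. PTPRC had a weight class change of 0.73 and the macrophage list a median of 0.75. Medians were 0.42 for the T cell, 1.66 for the B cell and 0.10 for the dendritic cell list, beside 0.05 over all genes tested. The part of leukocytes in the weight class changes was not tested.

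Within WRR, the low weight library held the higher value of all 6 genes. WRRl over WRRh was 2.18 for LAPTM5, 2.49 for LAMP3, 3.01 for TCIRG1, 1.47 for LAPTM4A, 1.49 for NPC1 and 1.30 for GNPTAB as FPKM ratios. The 3 leukocyte forms were at least 2-fold higher in WRRl, 3 of 6, against 3.28% of genes. Within XH the ratios XHl over XHh were closer to 1, at 1.39 for LAPTM5, 1.51 for LAMP3, 1.48 for TCIRG1, 1.17 for NPC1, 0.965 for LAPTM4A and 0.780 for GNPTAB. Of the 5 genes that averaged 1 FPKM or more there, 0 were at least 2-fold higher in XHl, against 0.779% of genes. The ratios of LAPTM4A and GNPTAB thus lay on opposite sides of 1 in the breeds, but the XH libraries were nearly equal for LAPTM4A. No ratio of 2 libraries has a replicate check.

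Genes whose profile over the 4 libraries was most like that of each gene fell into different kinds. The measure was the root mean square difference of log2(FPKM + 1), centred per gene, among 4944 named genes that averaged 5 FPKM or more. Nearest to LAPTM5 were MFSD12 (a transporter of lysosome-related organelles, difference 0.0522), CD3E (the T cell receptor ε chain, 0.0759) and IFI30 (the lysosomal thiol reductase of antigen presenting cells, 0.0843). MFSD12 had only 2.05 and 1.03 FPKM in XHl and XHh, against 12.9 and 5.26 FPKM in WRRl and WRRh. At such levels the added 1 shrinks ratios more than at those of LAPTM5, so its nearness depends on the scale. Nearest to LAMP3 were THY1 (a surface glycoprotein, 0.112), ADSV (adseverin, an actin-severing protein, 0.170) and LIPA (0.171), so the distances were larger. LAMP3 itself had only 1.12 and 0.739 FPKM in XHl and XHh, against 8.08 and 6.65 FPKM for THY1. Their nearness thus also depends on the scale. Nearest to TCIRG1 were IL2RG (the common cytokine receptor chain, 0.0560), MYO1F (a leukocyte myosin, 0.0756) and CCRL1 (a chemokine-binding receptor, 0.119). MFSD12, ADSV, MYO1F and CCRL1 reached the mean of 5 FPKM only through WRR.

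The widely expressed forms had many near neighbours. LAPTM4A had 410 genes within a difference of 0.2, against 19 for LAPTM5, 10 for TCIRG1 and 4 for LAMP3, and the nearest were APPL2 (an endosomal adaptor, 0.0255), POP4 (a subunit of RNase P, 0.0375) and EPB41L3 (a membrane skeleton protein, 0.0435). NPC1 had 59, led by H101 (a linker histone, 0.0413), RBM7 (an RNA-binding protein, 0.0521) and DCP1B (a decapping factor, 0.0713). GNPTAB had 44, led by AMPD3 (AMP deaminase, 0.0354), BCAR3 (a signalling adaptor, 0.0507) and LPIN1 (lipin, a phosphatidate phosphatase, 0.0520). APPL2 and POP4 reached the mean of 5 FPKM only through WRR. The measure is not scaled for range, so a gene that varies little lies near more genes. On log2(FPKM + 1) the range over the libraries ran from 1.14 for LAPTM4A to 3.27 for LAMP3. With 4 points per gene such likeness is a description only.

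Neighbours on the chromosome were looked at after the values were seen, and only some of them are given. ENSGALG00000018754, an ID without a symbol 1341 bp beyond TCIRG1, had 4.48 and 3.44 FPKM in XHl and XHh, against 33.9 and 11.0 FPKM in WRRl and WRRh, close to the profile of TCIRG1, and whether it belongs to the same transcript was not tested. DRAM1, a lysosomal membrane protein of autophagy 12242 bp from GNPTAB, went the other way from GNPTAB, at 2.10 and 1.57 FPKM in XHl and XHh, against 8.66 and 4.26 FPKM in WRRl and WRRh (-1.34 ± 0.24, limma adjusted p = 0.0571). MCCC1, 9968 bp from LAMP3, had 12.2 and 11.0 FPKM in XHl and XHh, against 9.89 and 11.5 FPKM in WRRl and WRRh. MCF2L2 and B3GNT5, which share a position 26353 bp from LAMP3, had the sign of LAMP3 and did not pass. Their breed changes were -1.11 ± 0.29 (limma adjusted p = 0.0922) and -0.85 ± 0.46 (adjusted p = 0.265).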

How the data were processed

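The deposited FPKM values per gene were made by the authors, who filtered out poor reads, mapped the remainder to the chicken genome with TopHat and set libraries against each other in Cuffdiff. No source used here gives a TopHat version. The tables also hold the authors' fold changes, p-values and q-values, which were not used. Each library stands in 2 of the 4 tables with equal values, except 69 values listed at 0 in just 1 of them, where the value above 0 was taken, none in the 6 genes.

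limma 3.58.1 in R 4.3.3 was run on log2(FPKM + 1) for genes averaging at least 1 FPKM, with breed and weight class over 4 libraries, 1 residual degree of freedom, trend and robust moderation, and Benjamini-Hochberg adjustment at 0.05 over 10669 genes. With both factors in the model, the residual is how far the breed difference itself differed between the weight classes, moderated over genes. A p-value thus measures neither the spread between birds nor that between the 2 libraries of a breed. For LAPTM5 the SE of the breed change was 0.20 in this model and 0.43 in a model with only breed. Limma was also run on simulated data with independent noise drawn from its own fit, which is no check of the calls near the threshold. Of the genes named in the text, LAMP3, CD79B, PLIN1, ATP6V1C2, DCSTAMP, MCF2L2 and B3GNT5 met the limma filter only through WRR. Ratios of 2 libraries were called at 2-fold on log2(FPKM + 1) where both values were above 0 and their mean was at least 1 FPKM.

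The 6 genes and the 15 gene lists were chosen with earlier results of these data known. Of the 173 list entries 99 matched 1 ID by symbol. Text names the 6 genes, list genes that were called or among the 3 most abundant of a list, relatives set against the 6, and the 3 genes most like each, and says where another was picked after its values were seen. Alternatives changed the pseudocount, the filter, genes listed at 0, the scaling, the moderation and the model, or left out each library. The fits with a library left out had only the factor tested in the model. Python 3.11.15 with pandas 2.3.3, numpy 2.4.6 and matplotlib 3.10.9 was used. The qPCR was not analysed here, and no promoter or protein sequence was used.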

Additional observations from a re-analysis of the deposited data

Results flagged for a closer look

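LAPTM4A and GNPTAB were picked out because their log2 ratio of low over high weight had opposite signs in the breeds. For LAPTM4A the XH libraries were nearly equal, so its sign in XH carries little. For LAPTM4A the log2(FPKM + 1) ratio was -0.05 in XH and 0.55 in WRR, so that XH minus WRR was -0.60. For GNPTAB it was -0.35 in XH and 0.37 in WRR, so that XH minus WRR was -0.72. Each ratio rests on 1 library against 1, and the difference between the breeds was not tested.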

How the results depend on the processing

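Each breed change kept its sign under the 14 alternatives, but the calls did not hold throughout. Of the 6 genes 3 were called, against 6 with only genes above 0 in all 4 libraries, 1 (LAMP3) in a model with only breed, and 0 with a pseudocount of 5, with no filter on low values, with quantile normalization and with moderation without trend or robust, where limma also called 0 of all genes. With a library left out, weight class was also dropped from the model. The spread then comes only from the breed that keeps both libraries, so no count is given. Under the alternatives that kept all 4 libraries, the limma adjusted p ranged from 0.0155 to 0.0939 for LAPTM5 and 0.0174 to 0.0939 for LAMP3. It ranged from 0.0212 to 0.0946 for TCIRG1, 0.0386 to 0.142 for LAPTM4A, 0.0225 to 0.0939 for NPC1 and 0.0376 to 0.113 for GNPTAB. Of all genes, 130 were called higher and 377 lower, against 333 and 1474 with only genes above 0, 235 and 772 at a mean of at least 5 FPKM, and 4 and 5 with a pseudocount of 5.

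Under every alternative 0 of the 6 were called between weight classes. Leaving out a library also unbalanced the breeds and took breed out of the model. The change then lay between -0.35 and 1.92 for LAPTM5, -0.75 and 2.23 for LAMP3, and -0.34 and 2.22 for TCIRG1. It lay between -0.32 and 0.82 for LAPTM4A, -0.20 and 0.96 for NPC1 and -0.67 and 0.68 for GNPTAB. The change of GNPTAB, near 0, turned to -0.0048 with a pseudocount of 5, -0.040 with median-of-ratios factors and -0.017 with quantile normalization. With FPKM alone, counting error cannot be given, which limits LAMP3 and TCIRG1 in XH most.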

Other observations

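Of the connective tissue markers 1 was called between the breeds. The 4 matched fibroblast markers of 6 summed to 923 and 1147 FPKM in XHl and XHh, against 2263 and 1862 FPKM in WRRl and WRRh, and COL1A2, the α2 chain of type I collagen, fell in XH by 0.75 ± 0.10 (limma adjusted p = 0.0483), a call lost after median-of-ratios factors. COL1A1 (limma adjusted p = 0.0754), DCN (0.0667) and LUM (0.0512) did not pass. They lay below WRR in both XH libraries, as did 51.8% of all genes tested, or 31.2% after median-of-ratios factors. LUM was picked out after its values were seen. Of the adipocyte markers 2 of 5 matched. PLIN1, the perilipin of the lipid droplet, had 0.583 and 1.30 FPKM in XHl and XHh, against 10.7 and 14.5 FPKM in WRRl and WRRh, and fell in XH by 2.82 ± 0.18 (limma adjusted p = 0.0418). PLIN1 averaged below 1 FPKM in XH, so it met the required mean only through WRR. ADIPOQ, the hormone adiponectin, had 62.9 and 68.6 FPKM in XHl and XHh, against 60.9 and 70.3 FPKM in WRRl and WRRh, with overlapping breeds. The endothelial markers VWF and TEK, 2 of 5, summed to 59.4 and 59.8 FPKM in XHl and XHh, against 53.4 and 64.5 FPKM in WRRl and WRRh, and 0 of them were called in limma at the adjusted threshold or at an unadjusted p under 0.05.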
